A study of Mus musculus with 20 samples.

Results

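The Ifit and Ifitm genes were followed in RNA from the hippocampus of 20 mice. The 7 genes were taken by name, 4 of the Ifit family (Ifit1, Ifit2, Ifit3 and Ifit3b) and 3 of the Ifitm family (Ifitm1, Ifitm2 and Ifitm3), out of 39056 gene identifiers in the count table. All 7 were among the 16107 genes with enough counts to be tested. Each library came from the left hippocampus of 1 female C57BL/6 mouse aged 12 to 13 months, and the 4 groups held 5 mice each, either miR-34a wild type (WT) or knockout (KO), with or without the Tg-SwDI transgene. The miR-34a KO is constitutive and in the whole body, so every cell type lacks the microRNA in both KO groups. The transgene encodes human APP with the Swedish, Dutch and Iowa mutations behind the neuronal Thy1 promoter, and the Non-Tg mice do not carry it. The groups were therefore WT Non-Tg (mice 2, 3, 4, 6 and 7), KO Non-Tg (mice 1, 2, 4, 7 and 8), WT Tg-SwDI (mice 3, 4, 5, 6 and 7) and KO Tg-SwDI (mice 1, 2, 3, 5 and 8), numbered as in the library labels.

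Ifit and Ifitm genes are interferon-stimulated genes (ISGs). Type I interferon binds the receptor made of Ifnar1 and Ifnar2, and the kinases Jak1 and Tyk2 activate the complex ISGF3, which holds Stat2 and Irf9 and binds the interferon-stimulated response element (ISRE) in promoters. Ifit proteins are cytosolic proteins built of tetratricopeptide repeats that bind RNA with foreign 5′ ends and block its translation, and Ifitm proteins are small membrane proteins that stop enveloped viruses from fusing with the cell. In the brain, ISGs are known from a state of microglia called interferon-responsive microglia, and Ifitm genes are also expressed by cells of vessels and meninges. Ifitm3 protein is known to bind gamma-secretase, the enzyme that releases amyloid β from APP.

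The 4 Ifit genes lie on chromosome 19 of mm10 (GENCODE M21) within 99316 bases, all on the plus strand. Ifit2 spans 34550694 to 34576419, Ifit3 spans 34583531 to 34588731, Ifit3b spans 34607970 to 34613401 and Ifit1 spans 34640871 to 34650009. The 3 Ifitm genes lie on chromosome 7 within 55934 bases. Ifitm2 spans 140954837 to 140955987 and Ifitm3 spans 141009586 to 141010770, both on the minus strand, and Ifitm1 spans 140967221 to 140969825 on the plus strand.

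Promoters are shown first because the ISRE is the letter pattern that the families are known for. Not every member held it in the windows searched, and sites elsewhere or with other letters would not be found. The pattern searched was GAAANNGAAA on both strands, in the window from 250 bases before to 50 bases after each RefSeq start on GRCm38.p6. It was present in 3.44% of 32851 such windows. Of the 7 members, 5 held it, with 2 matches each for Ifit1, Ifit3, Ifit3b and Ifitm3 and 1 for Ifitm2. No match was found for Ifit2, in either of its 2 windows, or for Ifitm1, whose RefSeq start lies inside the longer gene model of GENCODE. The stretches below are the 200 bases before the start of Ifit1 (chr19:34640689-34640888, plus strand), Ifit3 (chr19:34583329-34583528, plus strand), Ifitm2 (chr7:140955962-140956161, minus strand) and the first start of Ifit2 (chr19:34550494-34550693, plus strand), written 5′ to 3′ on the gene's strand with ISRE matches in capitals. The last line is the 27 bases of Ifitm3 (chr7:141010716-141010742, minus strand), just after its start, that hold both of its matches.
Ifit1: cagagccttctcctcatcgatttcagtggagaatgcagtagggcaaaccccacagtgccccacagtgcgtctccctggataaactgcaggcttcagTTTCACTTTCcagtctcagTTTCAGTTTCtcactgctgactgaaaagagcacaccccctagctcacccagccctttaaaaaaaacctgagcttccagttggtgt
Ifit3: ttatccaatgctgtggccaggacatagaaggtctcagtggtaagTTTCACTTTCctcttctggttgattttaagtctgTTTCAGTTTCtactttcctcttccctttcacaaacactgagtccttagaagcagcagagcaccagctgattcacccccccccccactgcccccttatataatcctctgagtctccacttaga
Ifitm2: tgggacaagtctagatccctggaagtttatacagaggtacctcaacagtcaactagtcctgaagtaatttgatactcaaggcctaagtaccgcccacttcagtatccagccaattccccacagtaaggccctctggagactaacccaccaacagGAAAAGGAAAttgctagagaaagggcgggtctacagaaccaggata
Ifit2: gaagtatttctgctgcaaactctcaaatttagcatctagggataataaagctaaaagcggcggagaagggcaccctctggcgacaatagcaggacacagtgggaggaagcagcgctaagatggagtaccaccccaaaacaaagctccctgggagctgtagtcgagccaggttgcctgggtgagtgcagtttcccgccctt
Ifitm3: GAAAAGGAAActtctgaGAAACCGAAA

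In Ifit1 and Ifit3 the pattern reads on the opposite strand, as TTTCACTTTC and TTTCAGTTTC in both genes. The window of Ifit3b aligned to that of Ifit3 over 274 bases with 259 identical (94.5%) and held the same matches. The 2 matches of Ifit1 (chr19:34640785-34640794 and chr19:34640804-34640813) also fall in the window of Ifit1bl2, a relative that starts next to Ifit1 and runs the other way.

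The microRNA that the KO mice lack, miR-34a-5p (chr4:150068473-150068494, plus strand, RefSeq, GRCm38.p6), pairs with messages through its seed, which is in capitals.
miR-34a-5p: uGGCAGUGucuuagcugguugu
The match to this seed, CACTGCC, was present in the 3′UTR of 14.66% of 21186 genes and in the coding sequence of 18.24%. The search covered the longest coding transcript of each gene and this exact match, so sites in other transcripts or of other kinds would not be found. None of the 7 members held this match in a 3′UTR. It occurred once in a coding sequence, that of Ifitm2, as gcctacgcctcCACTGCCaagtgcctgaa. The match to the seed of the other strand, miR-34a-3p, occurred once in the 3′UTR of Ifit2, against 11.23% of genes, and in the coding sequences of Ifit1 and Ifit2.

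Per mouse, 19549622 to 21066868 reads were counted on genes. Levels are given as counts-per-million (CPM) after TMM scaling of library sizes. As a check of the transgene labels, Thy1 ranged from 685 to 769 CPM without the transgene (10 mice) and from 1905 to 3318 CPM with it (10 mice). The mature microRNA was not analysed here. The library labelled KO Tg-SwDI mouse 8 stood apart, with 14.56% of its counts on mitochondrial genes against 6.94% to 8.76% in the other 19. Its neuron markers summed to 12383 CPM, against 8915 to 10436 CPM in the other 19. Where both were computed, results that rest on it are given with and without it. Markers of neurons, astrocytes, oligodendrocytes and microglia, as hippocampal tissue should hold, had counts in every group. Choroid plexus markers summed to 310 to 6928 CPM in WT and 273 to 733 CPM in KO mice without the transgene, and to 406 to 5804 and 422 to 5663 CPM in WT and KO mice with it. In bulk RNA, a change in the number of cells of a type and a change in RNA per cell cannot be told apart.

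**Figure D1:**
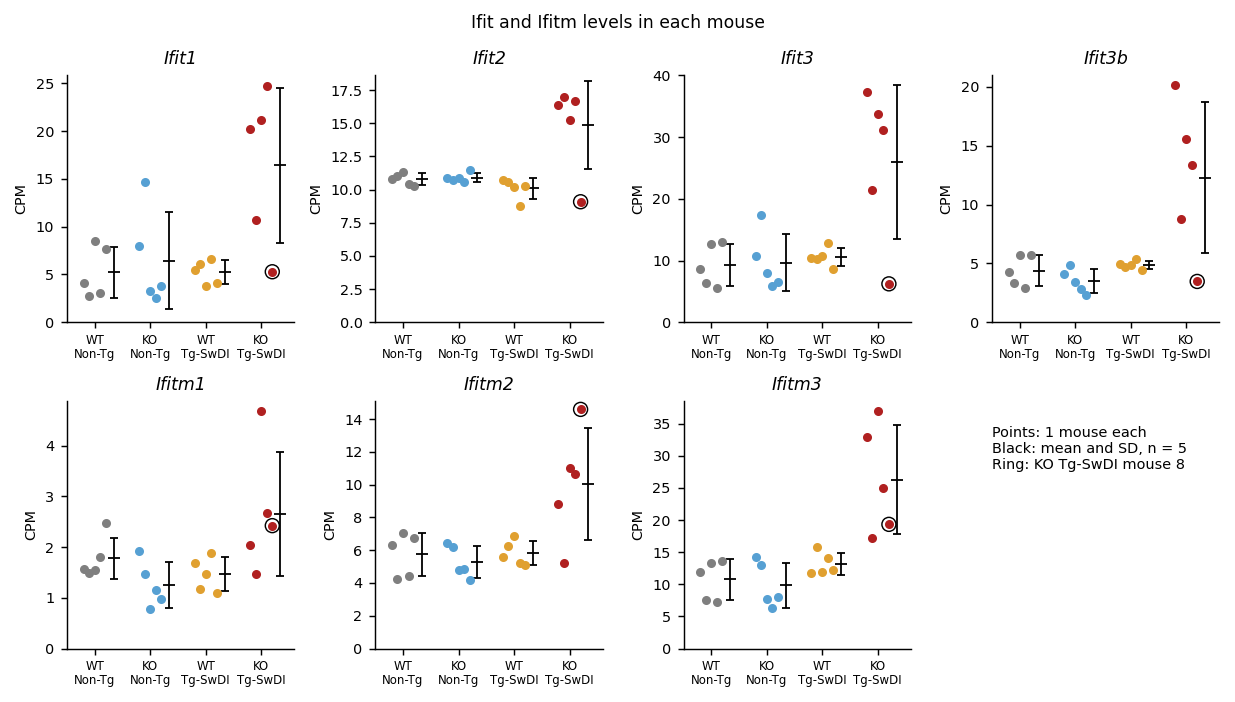
Level of each Ifit and Ifitm gene (y axis, CPM, from 0) in each of the 20 mice (points) by group (x axis), with group mean and SD in black (n = 5). For Ifit2, Ifit3 and Ifit3b, 4 of 5 KO Tg-SwDI mice sit above the other 15, and for Ifitm3 all 5 do. Mouse 8 (ring) lies among the other groups for the 4 Ifit genes and highest of all for Ifitm2.

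Per kilobase of exon, Ifitm3 was the most abundant member in every group and Ifitm1 the least. In WT Non-Tg mice the levels per kilobase were 15.9 ± 4.60 CPM for Ifitm3, 8.77 ± 2.02 for Ifitm2, 5.31 ± 1.98 for Ifit3, 2.75 ± 0.112 for Ifit2, 2.20 ± 0.659 for Ifit3b, 1.96 ± 1.02 for Ifit1 and 1.62 ± 0.377 for Ifitm1 (SD, n = 5). The last 4 of these lay within 1 SD of the neighbour in that order, with the SD of the more variable gene of each pair. In KO Tg-SwDI mice they were 38.8 ± 12.6 CPM for Ifitm3, 15.4 ± 5.22 for Ifitm2, 14.9 ± 7.17 for Ifit3, 6.19 ± 3.06 for Ifit1, 6.14 ± 3.21 for Ifit3b, 3.79 ± 0.843 for Ifit2 and 2.43 ± 1.12 for Ifitm1. By group mean, Ifit2 thus went from above Ifit3b and Ifit1 to below both. In KO Tg-SwDI mice too its mean lay within 1 SD of theirs, with the SD of Ifit1 or Ifit3b.

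The effect of miR-34a KO in mice that carry the transgene is the study's central contrast. With the transgene, fitted levels of all 7 members were higher in KO mice, and 3 of 7 passed the test (edgeR's quasi-likelihood test, FDR 0.05), Ifit2, Ifit3b and Ifitm2. Over all 16107 genes 1.99% passed, and 1.48% passed with a higher level in KO. All 7 had an unadjusted p under 0.05, as 18.9% of all genes did. The median log2 fold change was 1.0 over the 7 members and 0.00 over all genes. Ifit1, Ifit3, Ifitm1 and Ifitm3 missed the threshold, with edgeR quasi-likelihood adjusted p from 0.0507 to 0.0906.

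Ifit1, which binds RNA whose cap lacks the ribose methyl mark of host messages, was at 5.49, 6.10, 3.78, 6.67 and 4.07 CPM in WT Tg-SwDI mice 3 to 7. In KO Tg-SwDI mice 1, 2, 3, 5 and 8 it was at 20.3, 10.7, 21.2, 24.8 and 5.29 CPM. The first 4 of these KO mice were above every WT Tg-SwDI mouse and mouse 8 was among them. The fold was 3.15 (log2 1.66 ± 0.49 SE, 95% interval 0.61 to 2.71) and did not pass (edgeR quasi-likelihood adjusted p = 0.0889), nor without mouse 8 (1.88, adjusted p = 0.0508). Of 33 alternative fits, leaving aside the replicate block, Ifit1 passed in 4. These were the study's own exactTest (adjusted p = 0.0429), DESeq2 (0.0262), edgeR's likelihood ratio test (0.0404) and the choroid plexus covariate (quasi-likelihood, 0.0485). Non-Tg mice were as variable, at 4.07, 2.73, 8.55, 3.05 and 7.68 CPM in WT and 7.94, 14.7, 3.28, 2.49 and 3.82 CPM in KO. KO Non-Tg mouse 2 was thus above the WT mice of both kinds.

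Ifit2, which is known to bind AU-rich RNA and to form complexes with other Ifit proteins, had the lowest coefficient of variation among mice in 3 of the 4 groups. It was at 10.8, 10.6, 10.2, 8.74 and 10.3 CPM in WT Tg-SwDI mice and at 16.4, 17.01, 15.3, 16.7 and 9.09 CPM in KO Tg-SwDI mice. Again 4 KO mice were above all WT mice, and mouse 8 was below 4 of the 5. Ifit2 rose by 0.56 ± 0.11 on the log2 scale (fold 1.47, edgeR quasi-likelihood adjusted p = 0.0113), and by 0.69 without mouse 8 (adjusted p = 5.89e-06). Its coefficient of variation was 4.09% in WT and 3.34% in KO mice without the transgene and 7.89% in WT and 22.2% in KO mice with it, and the other members lay between 18.8% and 78.7% in the Non-Tg groups. In WT Tg-SwDI mice Ifit3b was lower, at 7.34%. The rise of Ifit2 was the smallest estimate of the 7, and its call held in each of the 20 fits that left out 1 mouse. The call was lost with the microglia covariate (adjusted p = 0.184), with the 10 Tg-SwDI mice fitted alone (0.0993) and with the replicate number as a block (0.155).

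Ifit3 and Ifit3b encode adaptor proteins that bind other Ifit proteins, and their coding sequences are identical at 1198 of 1209 bases (99.1%). Ifit3 was at 10.4, 10.2, 10.8, 12.9 and 8.66 CPM in WT Tg-SwDI mice and at 37.3, 21.4, 33.7, 31.1 and 6.22 CPM in KO Tg-SwDI mice. Ifit3b was at 4.98, 4.68, 4.86, 5.36 and 4.40 CPM and 20.2, 8.77, 15.6, 13.4 and 3.47 CPM in the same mice. For both genes the first 4 KO mice lay above every WT Tg-SwDI mouse and mouse 8 below every one. Ifit3b rose by 1.34 ± 0.33 (log2, fold 2.54, edgeR quasi-likelihood adjusted p = 0.0468), while the estimate for Ifit3, 1.30 ± 0.39, did not pass (adjusted p = 0.0906). Without mouse 8 both passed, at 1.58 (adjusted p = 0.00178) for Ifit3b and 1.55 (adjusted p = 0.0150) for Ifit3. The call of Ifit3b held in 4 of the 20 fits that left out 1 mouse (WT Non-Tg 6, KO Non-Tg 2, KO Tg-SwDI 2 or 8) and missed the threshold in the others, with adjusted p of at most 0.112.

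Reads shared between this pair of genes may have been split or lost, since the treatment of reads matching several genes was not stated. Of 100-base windows of exon sequence, 31.7% in Ifit3 and 27.4% in Ifit3b were found in the other gene. Of those in Ifitm2, 34.9% were found in 3 other annotated genes, and of those in Ifit1, 3.3% in Ifit1bl2. None of those in Ifit2, Ifitm1 or Ifitm3 were found in another gene. The 3 genes that match Ifitm2 were nearly without counts, at 0 CPM in every mouse for Gm45717 and Gm8865 and at most 0.0957 for Gm11951. Gm45717 overlaps Ifitm2 itself on the same strand, so its 0 CPM does not show whether reads of Ifitm2 were lost to the overlap. Summed, Ifit3 and Ifit3b gave a log2 fold change of 1.31 (edgeR quasi-likelihood adjusted p = 0.0775). Ifit3b made up 32.7 ± 1.72% of the counts of the pair in WT and 27.7 ± 4.0% in KO mice without the transgene, and 31.6 ± 1.58% in WT and 32.3 ± 3.01% in KO mice with it (SD, n = 5). The share lay between 22.0% and 35.8% in every mouse.

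Ifitm1, the family's cell-surface member, had 16 to 97 counts per mouse. It was at 1.69, 1.18, 1.47, 1.88 and 1.10 CPM in WT Tg-SwDI and 2.04, 1.46, 4.69, 2.67 and 2.42 CPM in KO Tg-SwDI mice, so mouse 2 of the KO group lay inside the WT range and mouse 3 stood highest. The estimate was 0.86 ± 0.26 (log2, edgeR quasi-likelihood adjusted p = 0.0803), 1.02 without mouse 2 (adjusted p = 0.0257) and 0.55 without mouse 3 (adjusted p = 0.202). It passed in 1 of the 20 fits that left out 1 mouse.

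Ifitm2, an endosomal member, was at 5.59, 6.24, 6.87, 5.22 and 5.12 CPM in WT Tg-SwDI mice and at 8.81, 5.22, 11.02, 10.7 and 14.6 CPM in KO Tg-SwDI mice. Here mouse 8, lowest of its group for the Ifit genes, was highest, and mouse 2 lay inside the WT range. Ifitm2 rose by 0.79 ± 0.20 (log2, fold 1.73, edgeR quasi-likelihood adjusted p = 0.0492), but the call was lost without mouse 8 (0.62, adjusted p = 0.0983) and was kept without mouse 2 (0.96, adjusted p = 0.00448). It held in 4 of the 20 fits that left out 1 mouse (WT Non-Tg 3 or 6, KO Tg-SwDI 1 or 2), and the adjusted p was at most 0.120 in the others.

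Ifitm3, the endosomal member with the broadest known antiviral range, was at 11.8, 15.8, 11.9, 14.2 and 12.2 CPM in WT Tg-SwDI mice and at 32.9, 17.2, 37.02, 24.97 and 19.3 CPM in KO Tg-SwDI mice. It was the 1 member whose groups did not overlap, as in 2.04% of all genes in that direction. Its fold was 2.0 (log2 1.0 ± 0.25, 95% interval 0.47 to 1.54), and its edgeR quasi-likelihood adjusted p of 0.0507 just missed the threshold. It passed in 4 of the 20 fits that left out 1 mouse, without KO Tg-SwDI mouse 8 (1.09, adjusted p = 0.0447) or 2 (1.13, 0.0241), WT Non-Tg mouse 6 (0.0497) or KO Non-Tg mouse 1 (0.0467). In the other 16 the adjusted p was at most 0.117, and the lowest estimate was 0.85, without KO Tg-SwDI mouse 3. Of all 33 alternative fits, leaving aside the replicate block, Ifitm3 passed in 11, among them exactTest (adjusted p = 0.0120) and DESeq2 (0.0085).

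**Figure D2:**
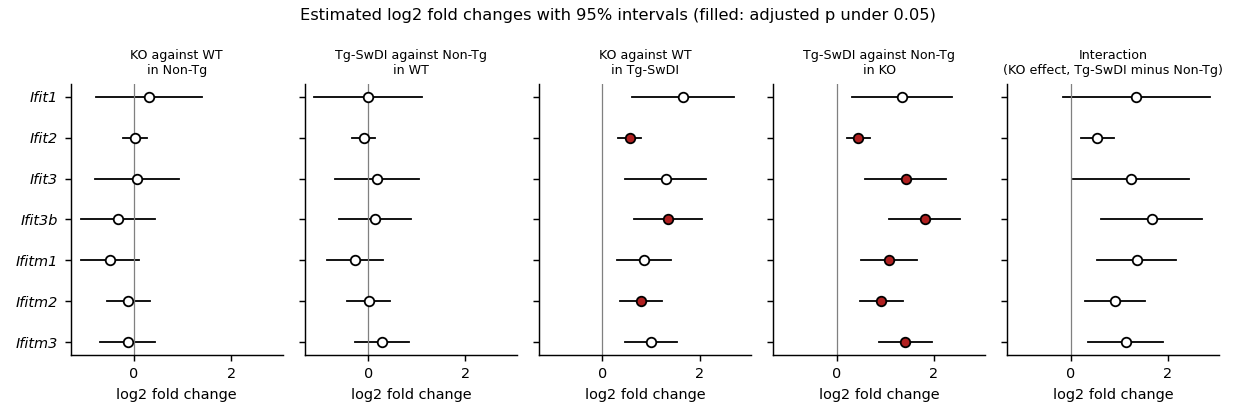
Fitted log2 fold change (x axis) of each member (y axis) with its 95% interval in the 5 contrasts, filled where the adjusted p was under 0.05. Estimates for both contrasts without KO Tg-SwDI mice lie between -0.50 and 0.30, with intervals that include 0 and 0 of 7 filled. Those that use KO Tg-SwDI mice lie above 0. Of these, 3 of 7 are filled for KO against WT, 6 of 7 for Tg-SwDI against Non-Tg and 0 of 7 for the interaction.

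Without the transgene, miR-34a KO went with no called change in any member. Log2 fold changes of KO against WT Non-Tg mice were 0.30 for Ifit1, 0.02 for Ifit2, 0.06 for Ifit3, -0.33 for Ifit3b, -0.50 for Ifitm1, -0.12 for Ifitm2 and -0.13 for Ifitm3. By edgeR's quasi-likelihood test 0 of 7 passed and 0 of 7 had an unadjusted p under 0.05, where 0% of all genes passed and 8.08% had such a p, and DESeq2 also called 0 of 7. Choroid plexus markers had lower fitted levels in KO in this contrast, with 0 of 15 above 0 (median -2.99) and 0 of 15 called. The intervals of the members differed in width. For Ifit2 the 95% interval was -0.22 to 0.26, whereas for Ifit1 it was -0.79 to 1.39 and for Ifit3 -0.81 to 0.93.

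The transgene was compared within each miR-34a genotype. In WT mice 0 of 7 members passed and 0 of 7 had an unadjusted p under 0.05 by edgeR's quasi-likelihood test, against 4.41% and 15.2% of all genes, and DESeq2 called 0 of 7. Log2 fold changes ran from -0.28 for Ifitm1 to 0.29 for Ifitm3, and the interval for Ifit2 was -0.33 to 0.15. In KO mice 6 of 7 rose, all but Ifit1, against 20.8% of all genes called and 12.5% called higher. Ifit3b rose by 1.81 ± 0.34 (log2, fold 3.51, edgeR quasi-likelihood adjusted p = 0.00104), Ifit3 by 1.43 ± 0.39 (0.0172) and Ifit2 by 0.45 ± 0.11 (0.00521). Ifitm3 rose by 1.42 ± 0.26 (fold 2.67, edgeR quasi-likelihood adjusted p = 0.000788), Ifitm1 by 1.08 ± 0.27 (0.00532) and Ifitm2 by 0.92 ± 0.21 (0.00283). Ifit1 stood at 1.35 ± 0.49 (edgeR quasi-likelihood adjusted p = 0.0591), and it passed without KO Non-Tg mouse 2 (1.91, 0.00945), KO Tg-SwDI mouse 8 (1.58, 0.0247) or KO Tg-SwDI mouse 2 (1.48, 0.0462). In this contrast only Ifitm3 had groups that did not overlap, against 8.47% of all genes in that direction.

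Choroid plexus differed in the same direction between these KO groups, and 13 of its 15 markers rose in KO Tg-SwDI against KO Non-Tg mice. With the choroid plexus level as a covariate 3 of 7 members passed in this contrast instead of 6, where 1218 of 16107 genes passed instead of 3351. With the microglia level 0 of 7 members and 18 of 16107 genes passed. Microglia marker sums were 381 to 409 CPM in KO Non-Tg and 863 to 1144 CPM in KO Tg-SwDI mice, without overlap. The microglia covariate can therefore hardly be told from the transgene here. Between the Tg-SwDI groups 0 of 15 choroid plexus markers passed. The part of either cell type in the result was not tested further. Both contrasts that held calls share the KO Tg-SwDI mice, so they are not independent of each other.

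The difference of the KO effect between Tg-SwDI and Non-Tg mice was tested as an interaction. It was positive for all 7 members, with a median of 1.24 on the log2 scale against 0.01 over all genes, and 0 of 7 passed, where 0.608% of all genes did. Choroid plexus markers, at 273 to 733 CPM in KO Non-Tg mice, were also positive, 15 of 15 with a median of 2.75, and 0 passed. The part of choroid plexus in the members' interaction was not tested beyond the covariate. An unadjusted p under 0.05 was found for 6 of 7, all but Ifit1, against 17.5% of all genes. Ifitm1 came nearest (1.36 ± 0.38, edgeR quasi-likelihood adjusted p = 0.0865), then Ifit2 (0.54 ± 0.16, 0.0972) and Ifit3b (1.67 ± 0.49, 0.109). DESeq2 called 3 members and 479 of 16107 genes, and edgeR's likelihood ratio test called 2 members and 263 genes. Without KO Tg-SwDI mouse 8, Ifit2 (0.68, edgeR quasi-likelihood adjusted p = 0.00194) and Ifit3b (1.91, 0.0118) passed, and without mouse 2 Ifitm1 and Ifitm2 did.

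**Figure D3:**
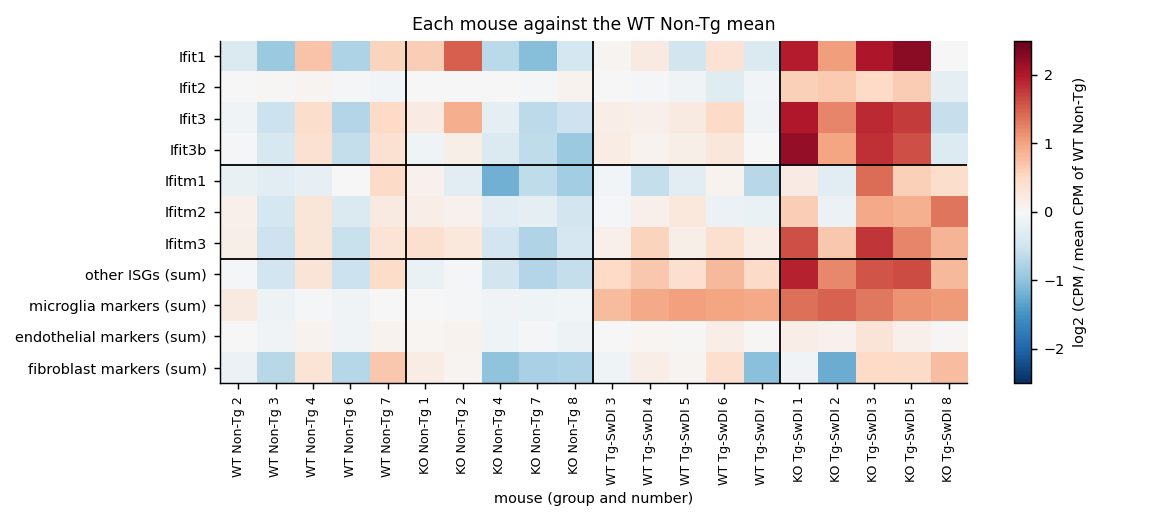
Level of each member and the summed level of 4 fixed gene lists (rows) in each mouse (columns), as log2 of CPM over the WT Non-Tg mean, red above and blue below. KO Tg-SwDI mice 1, 3 and 5 are red across nearly all members, mouse 2 is near white or blue for Ifitm1, Ifitm2 and fibroblast markers, and mouse 8 is near white or blue for the Ifit genes.

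Relatives of the members were read in the same contrasts. Inside the Ifit cluster, Ifit1bl1 and Ifit1bl2 lie between members on the opposite strand, and their log2 fold changes in KO against WT Tg-SwDI mice were -0.14 and 0.15. Ifit1bl2, which shares the ISRE stretch with Ifit1, had 0.589 to 1.64 CPM over the 20 mice. Ifit1bl1, with 1 ISRE match in each of its 2 windows, had 3.03 to 5.07 CPM. Ifitm7 and Ifitm10, which lie outside the Ifitm cluster, had -0.15 and -0.03. None of these 4 relatives was called in any of the 5 contrasts, and Ifitm5 and Ifitm6 had too few counts to be tested.

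The nearest protein-coding neighbours outside both families were also read, leaving out Ifitm5 and Ifitm6, which lie nearer, and Gm45717, which overlaps Ifitm2. Beside the Ifit cluster, Lipa, the lysosomal acid lipase, lies 23220 bases away and had a log2 fold change of 0.12 in KO against WT Tg-SwDI mice, and Slc16a12, a creatine transporter, lies 18394 bases away and had -0.05. Beside the Ifitm cluster, Pgghg, which cleaves glucose from glycosylated collagen, lies 7173 bases away and had 0.27 without overlap between groups (edgeR quasi-likelihood adjusted p = 0.196), and Gm17387 was not tested. Against KO Non-Tg mice, Lipa (0.60) and Pgghg (0.70) rose in KO Tg-SwDI mice.

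**Figure D4:**
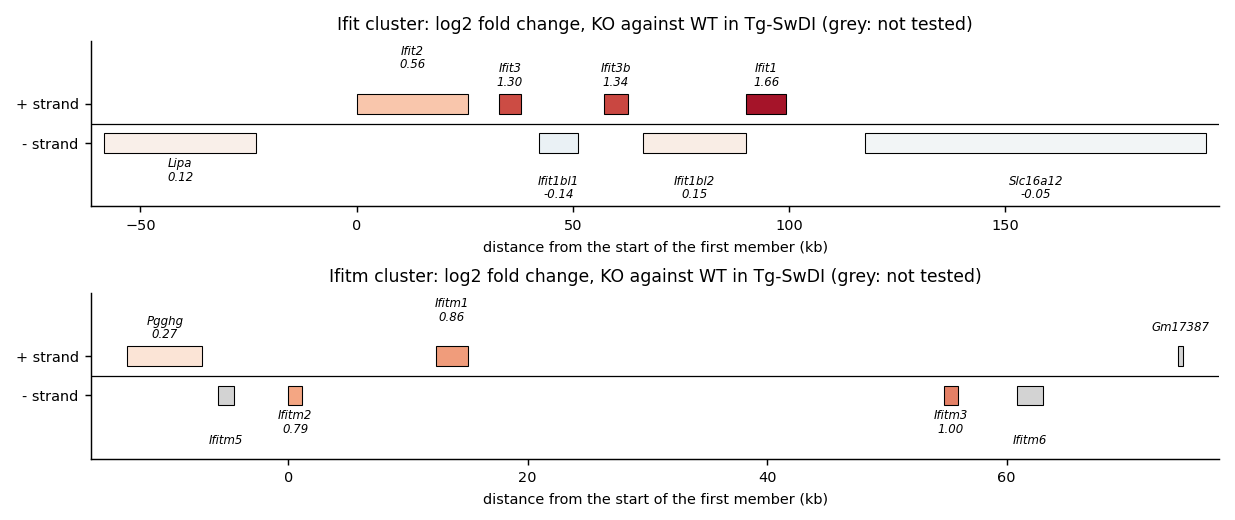
Map of the Ifit cluster and the Ifitm cluster, with distance from the start of the first member in kb on the x axis and strand on the y axis, each gene a box coloured and labelled by its log2 fold change in KO against WT Tg-SwDI mice (grey, not tested). Members carry 0.56 to 1.66, while the other tested genes of the maps carry -0.14 to 0.27.

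The genes upstream of the families were read from fixed lists, beginning with ligands. None of 21 interferon genes had enough counts to be tested. Ifnb1, the interferon β gene, had 2 counts over the 20 mice, and Ifng, interferon γ, had 9, with at most 3 in a mouse. At this depth no comparison of ligand messages was possible.

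Of 10 genes for receptors, kinases and the factors of ISGF3, 3 rose in KO against WT Tg-SwDI mice. These were Irf9 (0.73 ± 0.16, edgeR quasi-likelihood adjusted p = 0.0267), Stat2 (0.41 ± 0.09, 0.0232) and the receptor subunit Ifnar2 (0.40 ± 0.09, 0.0250). Ifnar2 went from a mean of 19.3 to 25.5 CPM without overlap and also passed the interaction test (0.57, edgeR quasi-likelihood adjusted p = 0.0402). The other subunit, Ifnar1, had -0.03 and the kinases Jak1 and Tyk2 had -0.05 and 0.02. In Tg-SwDI against Non-Tg KO mice Irf9 (1.13), Ifnar2 (0.71), Ifngr1 and Stat2 rose, and in WT mice 1 of the 10 did, Ifngr1 (0.32).

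Of the IRF factors, Irf7, which amplifies interferon production, stood at 1.54 in KO against WT Tg-SwDI mice (edgeR quasi-likelihood adjusted p = 0.0712), and Irf1 and Irf3 at 0.02 and 0.07. Irf7 (2.25) and Irf1 (0.37) rose in KO Tg-SwDI against KO Non-Tg mice. The feedback inhibitor Usp18, which blocks Ifnar2 signalling, stood at 1.31 (edgeR quasi-likelihood adjusted p = 0.122) and none of the 3 inhibitors on the list passed. In Tg-SwDI against Non-Tg mice Usp18 (2.1) and Socs3 (1.17) rose in KO and Socs3 (0.61) in WT.

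Other ISGs were read from a list of the same kind. Of 17 on the list 16 were tested, and 16 of 16 had higher fitted levels in KO against WT Tg-SwDI mice, with a median of 1.23. The 5 that passed were the antiviral GTPase Mx1 (1.77), Oasl2 of the oligoadenylate synthetase family (1.66), Ifi27l2a (1.45), the radical enzyme viperin, Rsad2 (1.30), and Rtp4 (1.17). In KO Tg-SwDI against KO Non-Tg mice 16 of 16 rose, with a median of 2.13 and the largest for Mx1 (2.91), Zbp1 (2.71) and Ifi44 (2.60). The member median in that contrast was 1.35. In WT Tg-SwDI against WT Non-Tg mice 0 of 16 passed by edgeR's quasi-likelihood test, with a median of 0.50, where the member median was 0.01.

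Few genes for known partners of the proteins were called. Of 6 genes for cap-making enzymes and translation factor subunits that Ifit proteins act on or bind, 0 passed in KO against WT Tg-SwDI mice, with log2 fold changes of -0.15 to 0.04. Of 12 genes for gamma-secretase and other proteins that bind or modify Ifitm3, 1 passed, the gamma-secretase subunit Psenen (0.26, edgeR quasi-likelihood adjusted p = 0.0409), without overlap between groups and with an interaction of 0.39 (0.0455). In KO Tg-SwDI against KO Non-Tg mice Ncstn (0.26), Psenen (0.30) and Aph1c (0.29), all of gamma-secretase, rose, while Aph1b fell by 0.18 and the cap methyltransferase Rnmt fell by 0.29.

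Differences between mice of the same group were compared after each mouse's log2 CPM was centred on its group mean. Over the 20 mice Pearson's r was 0.97 between Ifit3 and Ifit3b and 0.91 between Ifit1 and Ifit3. The correlations describe these libraries, whose points share group centring, TMM scaling and cell composition. Between families, Ifitm3 had an r of 0.84 with Ifit1 and 0.74 with Ifit3.

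Ifit2 had lower r with the other Ifit genes, and negative r without mouse 8. Its r with Ifit1, Ifit3 and Ifit3b was 0.42, 0.63 and 0.65 over the 20 mice and -0.13, -0.23 and -0.25 without KO Tg-SwDI mouse 8, while that of Ifit1 with Ifit3 was 0.93 without it. Outside the KO Tg-SwDI group, Ifit2 had 181 to 242 counts per mouse and a coefficient of variation of 3.34% to 7.89%. Differences this small may be largely counting noise, which was not tested, so the negative r may carry little information. The 3 Ifitm genes had pairwise r of 0.55 to 0.59, with a median of 0.57 over 20 mice and 0.63 without mouse 8. The median between families was 0.31 and became 0.63 without it.

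The genes of all 16107 whose centred level was most like the mean of the 4 Ifit genes over the 20 mice were Irf9 (Pearson's r 0.95), Parp14 (0.94), Usp18 (0.94), Rnf213 (0.94) and Gbp7 (0.93). Those most like the mean of the 3 Ifitm genes were Col1a2 (0.95), Ptgds (0.94), Ogn (0.93), Olfml2a (0.93) and Slc6a20a (0.92). Spearman's rho was 0.91 for Irf9 and 0.93 for Col1a2. Without the 2 mice farthest from the median of each family mean, r was 0.91 for Irf9 and 0.93 for Col1a2. Across families, r was 0.60 between the Ifit mean and Col1a2, 0.58 between the Ifitm mean and Irf9, and 0.51 between the family means. These values include KO Tg-SwDI mouse 8, whose centred mean was -1.37 for the Ifit genes and 0.07 for the Ifitm genes. They were not computed without it. Irf9 and Col1a2 were picked for the highest r with their own family, so their r across families is lower in part by that choice. The resemblance to Col1a2 held within groups and not between them, since Col1a2 averaged 16.9 CPM in WT and 16.6 CPM in KO mice without the transgene and 13.4 and 17.2 CPM with it, while Irf9 averaged 12.7, 10.9, 14.4 and 23.8 CPM in the same order.

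**Figure D5:**
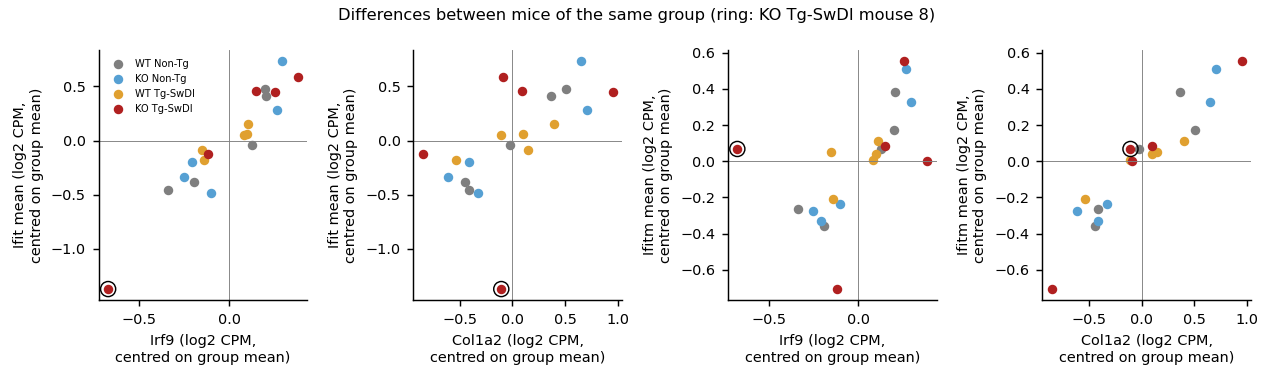
Mean of the Ifit genes (left panels) or of the Ifitm genes (right panels) on the y axis against Irf9 or Col1a2 on the x axis, all as log2 CPM centred on the group mean, 1 point per mouse (n = 20). The Ifit mean follows Irf9 (r 0.95) and the Ifitm mean follows Col1a2 (r 0.95), and KO Tg-SwDI mouse 8 (ring) lies far below 0 for the Ifit mean and Irf9 and near 0 for the Ifitm mean and Col1a2.

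Against the mean of the other 16 ISGs, centred r was 0.92 for Ifit1, 0.94 for Ifit3, 0.93 for Ifit3b, 0.84 for Ifitm3, 0.51 for Ifit2, 0.42 for Ifitm1 and 0.20 for Ifitm2. Without the 2 farthest mice the value for Ifit2 was -0.10 and that for Ifitm2 0.69. Against 7 meningeal fibroblast markers, r was 0.82 for Ifitm1, 0.79 for Ifitm2 and 0.81 for Ifitm3, 0.66 for Ifit1, 0.45 for Ifit3, 0.40 for Ifit3b and -0.27 for Ifit2. Against 6 border macrophage markers r was 0.78 for Ifit1, 0.65 for Ifit3, 0.62 for Ifit3b, 0.75 for Ifitm1, 0.57 for Ifitm2 and 0.84 for Ifitm3, and against 10 endothelial markers it was 0.67, 0.67, 0.64, 0.68, 0.41 and 0.75 in the same order, while Ifit2 had -0.04 and 0.01. Choroid plexus markers had an r of 0.72 with Ifitm2 and at most 0.52 with the other members.

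Markers of cell types were read beside the members in KO against WT Tg-SwDI mice. All 10 microglia markers had higher fitted levels in KO and 3 passed, Csf1r (0.56), Siglech (0.32) and Sall1 (0.27), and their sums were 863 to 1144 CPM in KO and 713 to 840 in WT Tg-SwDI mice, without overlap. With the microglia level as a covariate 1 of 7 members passed, Ifitm2 (1.01, edgeR quasi-likelihood adjusted p = 0.0467), and the estimates for Ifit3, Ifit3b and Ifitm3 became 0.63, 0.71 and 0.58. Over all genes 665 of 16107 passed with it, against 320 without it. Since the microglia sums did not overlap between these groups, the covariate can hardly be told from the miR-34a genotype here. In WT mice the same markers rose with the transgene, 10 of 10, where 0 of 7 members did.

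All 7 fibroblast markers had higher fitted levels in KO (median log2 fold change 0.37, against 0.29 for the microglia markers) and 0 passed, with sums of 118 to 325 CPM in WT and 102 to 414 in KO Tg-SwDI mice, the lowest in KO mouse 2 and the highest in KO mouse 8. These are also the KO mice with the lowest and the highest Ifitm2. With the fibroblast level as a covariate 3 of 7 members passed, Ifit2, Ifitm2 (0.56, edgeR quasi-likelihood adjusted p = 0.0468) and Ifitm3 (0.75, 0.0196), and Ifit3b did not (1.18, 0.0825). Over all genes 185 of 16107 passed with it. All 6 border macrophage markers were likewise higher in fitted level (median 0.52) and 0 passed, with sums of 6.46 to 10.9 CPM in WT and 7.57 to 16.9 in KO Tg-SwDI mice. All 5 mural markers had higher fitted levels (median 0.20) and 0 passed, with sums of 149 to 173 CPM in WT and 180 to 201 in KO Tg-SwDI mice, without overlap. Among the other lists, the endothelial Ly6c1 (0.46) and the astrocytic Gfap (0.51) rose, 0 of 8 neuronal, 0 of 7 oligodendrocyte and 0 of 4 tested red cell markers passed, and T cell, NK cell and neutrophil markers summed to under 1.2 CPM in every mouse. The part of these cell types in the members' levels was not tested beyond the covariates.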

How the data were processed

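The authors deposited raw read counts per Ensembl gene, made from stranded mRNA libraries of the left hippocampus with STAR on mm10 and featureCounts. The strand setting and the treatment of reads matching several genes were not given in the sources used here. Counts summed to 19549622 to 21066868 per mouse, which limits precision for members with few counts (Ifitm1, 16 to 97). Samples were grouped by their labels, and each library is 1 mouse. Symbols came from GENCODE M21 (38872 of 39056 identifiers). Promoters and miR-34a sequences came from RefSeq on GRCm38.p6, and promoters were found for all 7 members.

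TMM factors, filterByExpr by group (minimum count 10, minimum total 15; 16107 genes) and 1 robust quasi-likelihood fit of 4 group means (16 residual degrees of freedom) were computed with edgeR 4.0.16 in R 4.3.3, with Benjamini-Hochberg adjustment over 16107 genes at an FDR of 0.05. The study's own test, exactTest, was an alternative, as were DESeq2 1.42.0, edgeR's likelihood ratio test, other filters and scalings, the 10 mice of a contrast alone, replicate number as a block, choroid plexus or microglia level as a covariate and each mouse left out. A fibroblast covariate, the sum of Ifit3 and Ifit3b and a correction of every library for GC content and gene length were added after seeing the data. Likeness used log2 CPM (prior count 2). The fit was tested on simulated data.

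Members and lists were chosen with earlier results of these data known. Genes named were the members, list genes called in the contrast described (the 3 largest where more than 5 were), the nearest coding neighbours and the 5 genes most like each family mean. List genes given with values that did not pass (such as Ifnar1, Jak1, Tyk2, Irf7 and Usp18), and the relatives, were chosen after their values were seen. A gene of the lists is not reported here.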

Additional observations from a re-analysis of the deposited data

Results flagged for a closer look

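Ifit2 in KO Tg-SwDI mouse 8, at 9.09 CPM, lay far from the other 4 mice of its group, which were at 15.3 to 17.0 CPM. Its gap to the nearest of them was 0.781 of the range of the group, above the 95% critical value of Dixon's test for 5 samples, 0.71. It was the 1 flag among 28 combinations of member and group, where chance flags about 1 in 20. The same library had the highest mitochondrial share (14.56%), the lowest Ifit1, Ifit3 and Ifit3b of its group and the highest Ifitm2 of all 20 mice. It also had the highest sum of neuron markers. The part of its RNA quality or cell composition in these levels was not tested. Leaving it out raised the log2 fold change of Ifit2 in KO against WT Tg-SwDI mice from 0.56 to 0.69.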

How the results depend on the processing

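In KO against WT Tg-SwDI mice, every alternative kept the 7 members above 0, but the number called, 3 of 7, ranged widely. It was 7 with DESeq2, 6 with the likelihood ratio test, exactTest or the choroid plexus covariate, 4 with the stricter filter or RLE factors, 3 with the fibroblast covariate, 1 without a filter, with library size alone, with the microglia covariate or after correction for GC content and gene length, and 0 with the 10 mice compared alone. Leaving out 1 mouse gave 1 to 5. In Tg-SwDI against Non-Tg KO mice, 6 of 7 became 0 with the microglia covariate and 3 with that of choroid plexus, 5 with the 10 mice compared alone (Ifit3 adjusted p = 0.0837), 7 with DESeq2, the likelihood ratio test, exactTest or the fibroblast covariate, and 6 to 7 when 1 mouse was left out. The interaction gave 0 of 7, but 2 with the likelihood ratio test, 3 with DESeq2, where Ifitm1 had no adjusted p, and 0 to 2 when 1 mouse was left out. The causes were not tested. The other 2 contrasts called 0 of 7 in every alternative.

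Replicate numbers are shared between groups in the labels. Centred levels of same-numbered mice had r of -0.404 to 0.154, over 0.1 in 2 of 16 pairs. Pairs of mice with different numbers had r of -0.371 to 0.504, over 0.1 in 25 of 134. Whether the numbers mark a litter or a batch was not tested. With the replicate block, 0 of 7 members passed in KO against WT Tg-SwDI mice, where 8 of 16107 genes did. In Tg-SwDI against Non-Tg KO mice 4 of 7 members passed with it, where 2538 of 16107 genes did. In WT mice the estimates for Ifit1 and Ifitm2 in the transgene contrast became 0.0037 and -0.047.

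Some estimates changed sign. In KO against WT Non-Tg mice, with the choroid plexus covariate, Ifit2 became -0.034, Ifitm2 0.22 and Ifitm3 0.17, and with the fibroblast covariate Ifit2 became -0.0021. Leaving out 1 mouse gave -0.25 to 0.56 for Ifit1, -0.0022 to 0.037 for Ifit2 and -0.26 to 0.21 for Ifit3, the lowest for Ifit1 and Ifit3 without KO Non-Tg mouse 2. In Tg-SwDI against Non-Tg WT mice, Ifit1 became 0.0057 with the stricter filter, 0.0015 with the likelihood ratio test and exactTest, and 0.32 with the fibroblast covariate, and ranged from -0.16 to 0.25 when 1 mouse was left out. Ifitm2 became -0.10 with the choroid plexus covariate and -0.014 after correction for GC content and gene length, and ranged from -0.079 to 0.097 when 1 mouse was left out. With the microglia covariate, which differed between transgene groups without overlap, Ifit3, Ifit3b and Ifitm3 became -1.52, -1.45 and -0.83 in WT mice, and Ifit2, Ifit3, Ifit3b and Ifitm3 became -0.30, -1.10, -0.56 and -0.23 in KO mice.

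Over all genes, KO against WT Tg-SwDI mice gave 320 calls, but 8 with the block, 58 with the 10 mice alone, 146 after correction for GC content and gene length, 185 with the fibroblast covariate, 564 with the choroid plexus and 665 with the microglia covariate, 733 with DESeq2, and 78 to 701 when 1 mouse was left out. The likelihood ratio test gave 484, exactTest 465, the stricter filter 391, RLE factors 326, no filter 268 and library size alone 217. In Tg-SwDI against Non-Tg KO mice 3351 genes passed, but 2435 with the 10 mice alone and 3617 with DESeq2. There the likelihood ratio test gave 3286, exactTest 3214 and the fibroblast covariate 2732. With library size alone 102 genes were higher and 115 lower, against 239 and 81. In Tg-SwDI against Non-Tg KO mice 2013 were higher and 1338 lower, but 1482 and 3358 after correction for GC content and gene length and 1675 and 1792 with library size alone. The resemblance of the Ifitm mean to Col1a2 rests on centring, since without it r was 0.60 and the rank 1539 of all genes.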
